A study of Mus musculus with 10 samples.

Results

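Collagens are the main fibre-forming and sheet-forming proteins of the extracellular matrix, and every collagen contains at least one stretch in which 3 chains wind into a helix. The collagen genes described here are the protein-coding mouse genes whose symbol in GENCODE release vM21 is Col, digits, a, digits, and all 44 of them were among the 26040 genes counted. After a filter on low counts, 38 of the 44 were tested among 16446 genes in all. The 44 were chosen by name and not by their values, though earlier results of these data were known.

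The libraries were made from total RNA of epididymal white adipose tissue, the visceral fat pad beside the epididymis, of C57BL/6 mice. Adipocyte-specific Sucnr1 knockout mice (Ad-Sucnr1 KO, n = 5 libraries, called KO) were compared with Sucnr1fl/fl mice (n = 5, called control), whose Sucnr1 alleles carry loxP sites. Sucnr1 encodes a cell-surface receptor for succinate. The sources used here do not give the promoter that drives the deletion, nor the age, diet or litter of the mice.

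In fat, adipocytes are each wrapped in a basement membrane whose core is a type IV collagen network, with type VI collagen and fibrils of types I, III and V outside it. Chains of type I and III collagen are made mostly by fibroblast-like progenitors, and type IV chains also by endothelial cells and adipocytes. Type VI collagen forms beaded filaments that link basement membranes to fibrils, and its loss is known to alter how fat pads of obese mice expand. Each library holds RNA of tissue and not of separated cells. Fewer cells of a type and less RNA per cell therefore cannot be told apart in any value below.

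Total counts ranged from 24182798 to 30603326 per library. Levels are given in CPM, counts scaled to a common library size with the trimmed mean of M values (TMM), and adjusted p-values are from edgeR's quasi-likelihood test with Benjamini-Hochberg adjustment over all genes tested. Sucnr1 averaged 3.10 ± 1.01 CPM in KO and 59.6 ± 17.4 CPM in control libraries (SD, n = 5 each), and it fell by 4.26 on the log2 scale in KO (SE 0.29, adjusted p = 0.000333). The adipocyte markers were abundant in every library, with Adipoq, the gene of adiponectin, at 2703 ± 300 CPM in KO and 2479 ± 806 CPM in control. Several libraries stood apart in transcripts of other organs. Crisp1, which encodes a secreted epididymal protein, had 971, 3574, 1.29, 184 and 10.2 CPM in KO libraries 2 to 6, against 1049, 2715, 18.8, 137 and 8572 CPM in control libraries 2 to 6. Akr1b7, a vas deferens gene, was at 10.1 CPM or less in the 5 KO libraries, against 807 CPM in control 2, 5106 CPM in control 3, 0 CPM in control 4 and 13.9 CPM or less in the other controls. Alb, the liver gene of albumin, was at 4310 CPM in KO library 6 and at 83.1 CPM or less in every other library. Summed smooth muscle markers ranged from 394 to 833 CPM in KO and from 521 to 3417 CPM in control, the highest being control library 3. Summed epididymal markers ranged from 9.75 to 4899 CPM in KO and from 40.6 to 12173 CPM in control. All 6 that were tested of 10 had fold changes below 0, as had 55.2% of all genes tested. The 7 hepatocyte markers summed to 5877 CPM in KO library 6. Cartilage markers were low, with sums of 1.46 to 3.72 CPM in KO and 0.709 to 6.00 CPM in control. Of these 5 markers only Comp was tested, at 1.74 ± 0.85 CPM in KO and 1.46 ± 0.95 CPM in control.

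No collagen gene was called at an adjusted p under 0.05 by edgeR, where 10 of the 16446 genes, or 0.0608%, were (0.0243% higher and 0.0365% lower in KO). The count was also 0 with limma-voom, with and without sample weights. DESeq2 called 2 collagen genes, Col6a6 (higher in KO) and Col26a1 (lower), where it called 213 genes, or 1.41% of the 15100 to which it gave an adjusted p (0.861% higher and 0.55% lower in KO). At an unadjusted edgeR p under 0.05 there were 6 collagen genes, 2 higher and 4 lower in KO. That threshold took 10.1% of all genes, 5.36% higher and 4.77% lower.

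Of the 38 tested collagen genes, 33 (86.8%) had a fold change below 0 and 5 were above 0. Their median log2 fold change was -0.22. Of all genes tested, 55.2% were below 0 and 44.8% above, with a median of -0.03. The collagen genes share cells and libraries, so these 38 values are not independent, and the count was not tested. Under every alternative scaling, 33 or 34 of the 38 were below 0. Without control library 3 the count was 30 of 40, and without KO library 3 and control libraries 3 and 6 it was 27 of 38. Control library 3 held the highest value of 13 of the 38 genes (34.2%), against 14.6% of all genes. KO library 3 held the lowest value of 13 (34.2%), against 9.8% of all genes.

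Summed over the 44 genes, collagen transcripts made up 6525 ± 1415 CPM in KO and 7191 ± 1561 CPM in control (SD, n = 5 each). The sums were 6663, 4776, 8540, 6951 and 5697 CPM in KO libraries 2 to 6, against 7072, 8521, 6975, 8620 and 4767 CPM in control libraries 2 to 6. The ranges overlapped almost wholly. As a share of all counts this was 0.636% ± 0.121 in KO and 0.733% ± 0.162 in control. The 4 most abundant genes, Col4a1, Col3a1, Col1a2 and Col4a2, held 52.5% of the collagen CPM over all libraries.

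**Figure D1:**
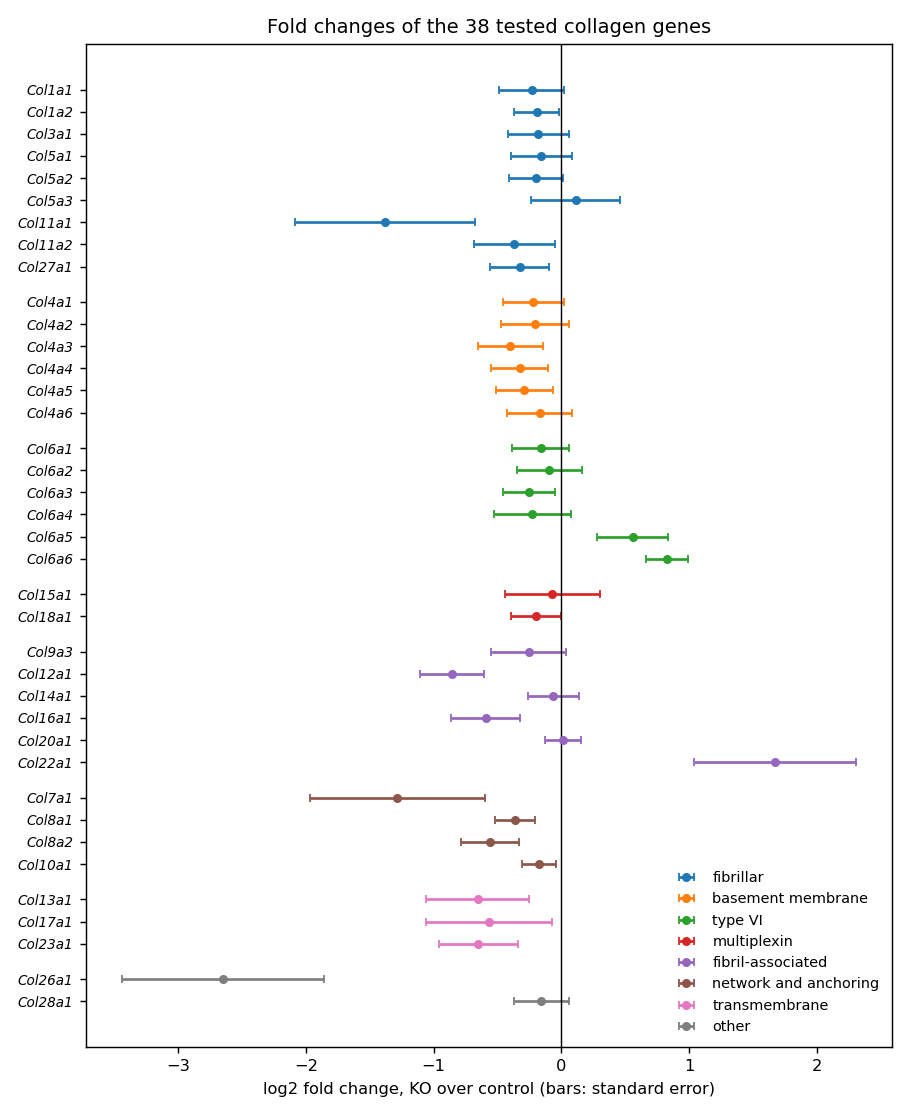
The log2 fold change of KO over control (x axis) is plotted for each of the 38 tested collagen genes (y axis, grouped and coloured by class), with bars showing the standard error. Most points lie just left of 0, while Col6a5, Col6a6 and Col22a1 lie to the right at 0.56, 0.82 and 1.67, and Col26a1 lies farthest left at -2.65.

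The fibril-forming collagens give tissue its tensile strength, and 9 of their 11 genes were tested. One had a fold change above 0 and 8 were below, with a median of -0.20. Col1a1 and Col1a2 encode the paired chains of type I collagen, the most common fibril. Col1a1 stood at 320, 233, 320, 344 and 194 CPM in KO libraries 2 to 6, against 242, 542, 247, 359 and 269 CPM in control libraries 2 to 6. Col1a2 stood at 637, 486, 596, 713 and 515 CPM in KO, against 597, 947, 621, 702 and 501 CPM in control. For both genes the groups overlapped and control library 3 was highest. The log2 fold change was -0.23 for Col1a1 (SE 0.25, adjusted p = 0.749) and -0.19 for Col1a2 (SE 0.18, adjusted p = 0.715). Col3a1, the single chain of type III collagen, which forms thin fibrils with type I, stood at 1157, 741, 1201, 1091 and 951 CPM in KO, against 905, 1824, 1169, 1174 and 748 CPM in control. It too was highest in control library 3, and its log2 fold change was -0.18 (SE 0.24, adjusted p = 0.789). Without control library 3 the log2 fold change was 0.01 for Col1a1, -0.04 for Col1a2 and 0.035 for Col3a1. Col3a1 was -0.31 without control library 6.

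Type V chains are minor partners that set the width of type I fibrils. Col5a1 averaged 232 ± 57.4 CPM in KO and 259 ± 73.9 CPM in control, and Col5a2 averaged 160 ± 34.6 CPM in KO and 184 ± 46.7 CPM in control. Col5a3 stood at 277, 210, 612, 225 and 277 CPM in KO libraries 2 to 6, against 294, 249, 332, 450 and 156 CPM in control. The groups overlapped, and KO library 4 was far above the other KO libraries. Its log2 fold change of 0.11 (SE 0.35, adjusted p = 0.914) was -0.26 without that library.

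The remaining fibrillar genes were scarce. Col11a1, which starts fibrils in cartilage, was near the filter. It stood at 0.981, 0.890, 0.108, 0.178 and 0.440 CPM in KO, against 0.808, 2.54, 0.319, 0.792 and 2.35 CPM in control. The groups overlapped, control libraries 3 and 6 were highest, and the log2 fold change was -1.38 (SE 0.70, adjusted p = 0.527). It was -0.30 without control libraries 3 and 6, -0.08 with an adipocyte marker score (the mean log2 CPM of the marker list) as a covariate and -0.67 with a smooth muscle marker score. Col11a2 averaged 1.11 ± 0.29 CPM in KO and 1.43 ± 0.60 CPM in control, and Col27a1 averaged 7.44 ± 1.16 CPM in KO and 9.32 ± 3.29 CPM in control. Col2a1, the main chain of cartilage fibrils, and Col24a1 did not pass the filter, with 63 and 175 counts over all 10 libraries.

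**Figure D2:**
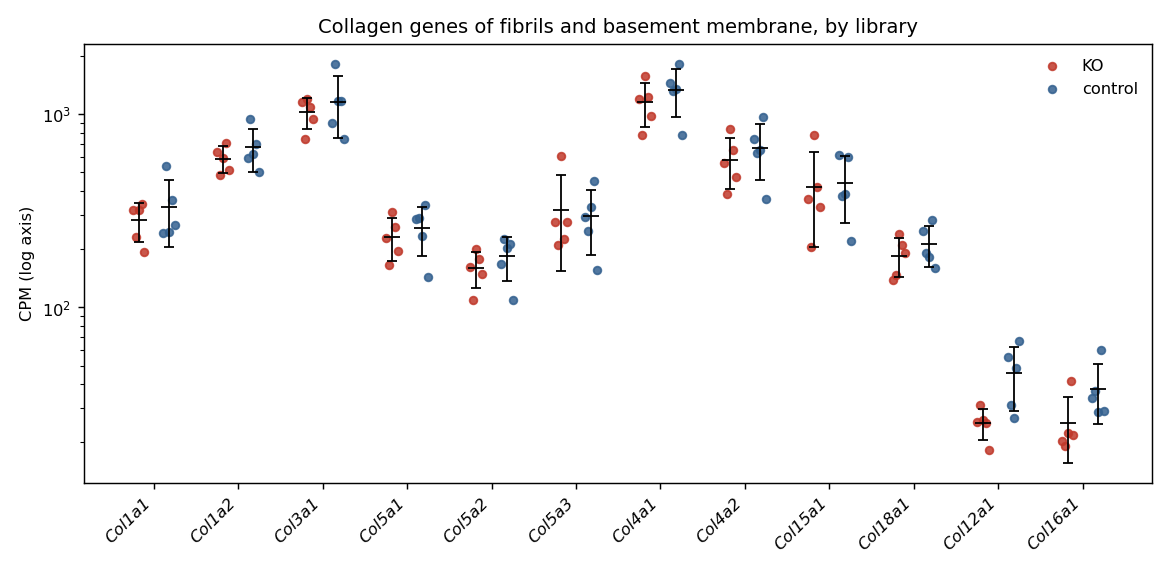
CPM on a log axis is plotted for 12 abundant or named collagen genes (x axis) in each KO library (red) and control library (blue), with bars at the mean and SD of 5 libraries. The groups overlap for every gene plotted; for Col12a1, 4 of the 5 control libraries lie above the highest KO library at 31.2 CPM.

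The basement membrane collagens are the chains of type IV, which assemble into a net in place of fibrils. All 6 genes were tested and all 6 had fold changes below 0, with a median of -0.26. With the adipocyte score as a covariate that median was -0.10, and without control libraries 3 and 6 it was -0.12. Col4a1 and Col4a2, the chains of the ubiquitous network, were the most abundant pair. Col4a1 stood at 1196, 781, 1572, 1228 and 982 CPM in KO, against 1448, 1315, 1352, 1813 and 781 CPM in control. Col4a2 stood at 563, 387, 839, 652 and 476 CPM in KO, against 743, 631, 656, 966 and 366 CPM in control. The groups overlapped for both, control library 5 was highest, and KO library 3 and control library 6 were the lowest pair of libraries. The log2 fold changes were -0.22 for Col4a1 (SE 0.24, adjusted p = 0.749) and -0.21 for Col4a2 (SE 0.27, adjusted p = 0.787). Single libraries moved both values. They were -0.09 for Col4a1 and -0.04 for Col4a2 without control library 5, -0.11 and -0.09 without KO library 3, -0.36 and -0.37 without KO library 4, and -0.37 for both without control library 6. With the adipocyte score as a covariate they were -0.51 for Col4a1 and -0.52 for Col4a2.

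Col4a3 and Col4a4 form, with Col4a5, the network known from kidney and other specialised basement membranes. Col4a3 averaged 7.78 ± 2.01 CPM in KO and 10.3 ± 4.05 CPM in control, and Col4a4 averaged 16.8 ± 5.49 CPM in KO and 21 ± 5.02 CPM in control. Both were highest in control library 6 (17.4 and 29.6 CPM) and, among KO, in library 3 (11.2 and 26.1 CPM), which were also the highest of their groups for Crisp1. Col4a5 and Col4a6 were instead highest in control library 3, at 86.2 and 55.9 CPM, the library highest in smooth muscle markers. The part of epididymal or smooth muscle RNA in these values was not tested.

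The type IV genes lie in pairs that start next to each other on opposite strands. In vM21 (mm10), Col4a1 (chr8:11198423-11312826, minus strand) and Col4a2 (chr8:11312805-11449287, plus strand) overlap by 22 bases at their starts. Col4a4 and Col4a3 start 72 bases apart on chromosome 1, and Col4a6 and Col4a5 start 1309 bases apart on chromosome X. The sequence between the Col4a4 and Col4a3 starts is shown because it is all that separates the annotated starts of these oppositely transcribed genes. It is chr1:82586850-82586920 of GRCm38.p6, plus strand, 71 bases, taken from the RefSeq promoter table, with no capitals because none of the 3 motifs searched below was found.
Col4a4 and Col4a3: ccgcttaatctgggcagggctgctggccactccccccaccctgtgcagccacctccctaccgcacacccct

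The paired chains also varied together between libraries. After subtracting each group's mean of log2 CPM, Col4a1 and Col4a2 had r = 0.993 over the 10 libraries (two-sided permutation p = 2e-05, the smallest that 100000 resamples can give; adjusted p = 0.00012 over the 6 pairs examined). Their rho was 0.976 (permutation p = 2e-05, adjusted p = 0.00012). Without the 2 libraries farthest from the median of the first gene, r was 0.986. Col6a1 and Col6a2, which encode partner chains of type VI, had r = 0.977 (permutation p = 0.0001, adjusted p = 0.0003), rho = 0.927 (permutation p = 0.00064, adjusted p = 0.00128) and r = 0.933 without 2 libraries. Col3a1 and Col5a2 had r = 0.879 (permutation p = 0.00016, adjusted p = 0.00032), rho = 0.903 (permutation p = 0.00062, adjusted p = 0.00128) and r = 0.899 without 2 libraries. Col1a1 and Col3a1 had r = 0.790 (permutation p = 0.00914, adjusted p = 0.0137), rho = 0.758 (permutation p = 0.0152, adjusted p = 0.0228) and r = 0.699 without 2 libraries. The coefficients across families were lower. Col1a1 and Col4a1 had r = 0.410 (permutation p = 0.229, adjusted p = 0.275), rho = 0.285 (permutation p = 0.428, adjusted p = 0.512) and r = 0.531 without 2 libraries. Col1a1 and Col15a1 had r = 0.263 (permutation p = 0.467, adjusted p = 0.467), rho = 0.236 (permutation p = 0.512, adjusted p = 0.512) and r = 0.424 without 2 libraries. These pairs share the same 10 libraries and their scaling, and the differences between the 6 coefficients were not tested.

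**Figure D3:**
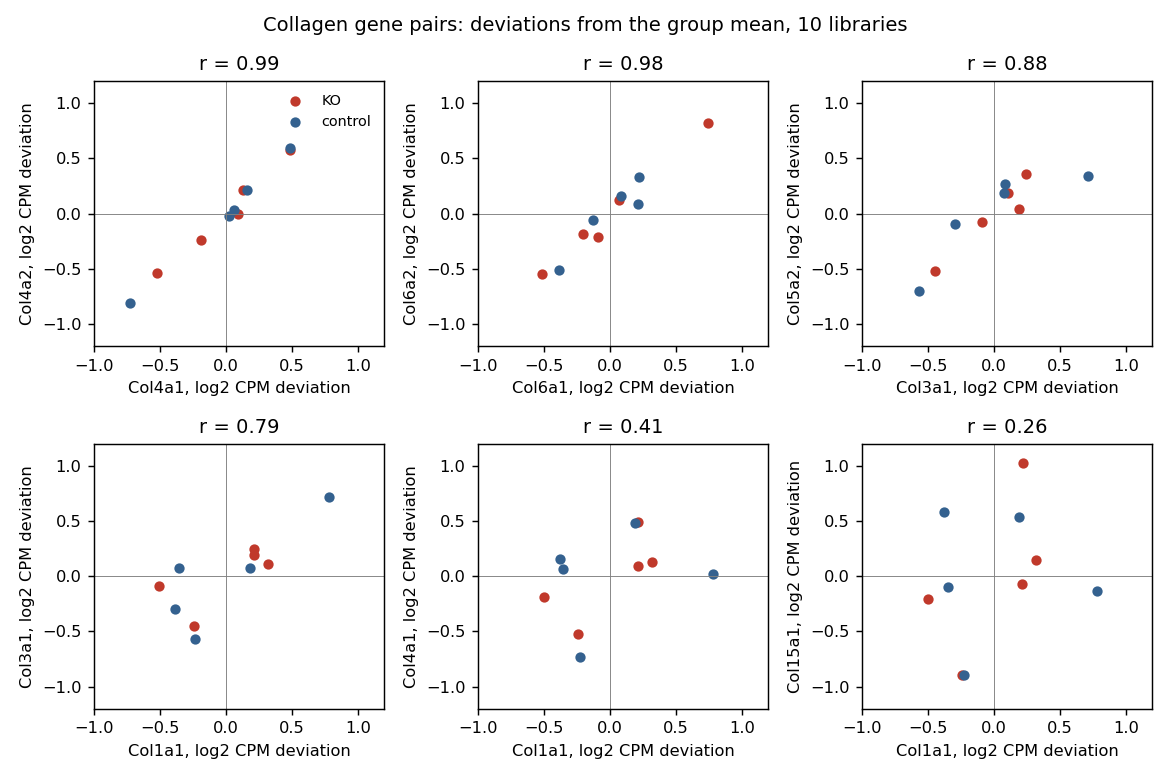
Each panel plots, for a pair of collagen genes, the deviation of log2 CPM from the group mean in the 5 KO (red) and 5 control (blue) libraries. The points of Col4a1 and Col4a2 (r = 0.99) lie close to a line, while those of Col1a1 and Col15a1 (r = 0.26) scatter.

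The ratio of partner chains per length of exon was close in both groups. Col4a1 to Col4a2 was 1.77 ± 0.098 in KO and 1.79 ± 0.094 in control, and Col1a1 to Col1a2 was 0.901 ± 0.113 in KO and 0.917 ± 0.150 in control. Col6a1 to Col6a2 was 2.59 ± 0.145 in KO and 2.71 ± 0.226 in control. Col3a1 to Col1a1, chains of different fibrils, was 2.49 ± 0.469 in KO and 2.39 ± 0.489 in control. All 4 differences were smaller than the SD of either group. The ratio's size depends on the length used: with the longest transcript in place of all annotated exons, Col1a1 to Col1a2 was 0.429 in KO and 0.437 in control.

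Type VI collagen has a core of a Col6a1 and a Col6a2 chain with a long chain of the Col6a3 kind. In mice Col6a4, Col6a5 and Col6a6 encode further long chains that resemble Col6a3 and can take its place. Of the 6 genes, Col6a5 and Col6a6 had fold changes above 0 and the other 4 were below, with a median of -0.13. Col6a6 (ENSMUSG00000043719, chr9:105687809-105828160, minus strand) stood at 132, 102, 82.8, 102 and 93.7 CPM in KO libraries 2 to 6, against 49.5, 75.2, 63.6, 57.5 and 43.4 CPM in control libraries 2 to 6. Every KO library lay above every control library, which held for no other of the 38 tested collagen genes in either direction. Of all genes tested, 1.91% had groups that did not overlap (1.01% higher and 0.9% lower in KO). A count of 1 among 38 is near that share. Col6a6 averaged 102 ± 18.3 CPM in KO and 57.8 ± 12.4 CPM in control, a log2 fold change of 0.82 (SE 0.16). The adjusted p of edgeR was 0.251, so Col6a6 was not called, and DESeq2 gave an adjusted p of 0.000916 with a log2 fold change of 0.83. For Col6a6 alone, permuting the group labels gave an exact two-sided p = 0.00794, the smallest that 5 against 5 libraries allow. Any gene whose groups do not overlap gets this value, so it adds nothing to the separation above. Over 26 alternatives its log2 fold change ranged from 0.72 to 0.97 and its adjusted p from 0.000916 to 0.752.

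Col6a5 (chr9:105856078-105960643, minus strand) stood at 446, 323, 181, 263 and 271 CPM in KO, against 128, 297, 238, 153 and 192 CPM in control. The groups overlapped, with KO library 4 below control libraries 3, 4 and 6. It averaged 297 ± 97.8 CPM in KO and 201 ± 67.5 CPM in control, a log2 fold change of 0.56 (SE 0.28, adjusted p = 0.519, exact two-sided permutation p = 0.0952). Over the same alternatives its log2 fold change ranged from 0.37, without KO library 2, to 0.86.

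The core chains and Col6a3 had fold changes below 0. Col6a1 stood at 299, 242, 577, 363 and 324 CPM in KO, against 461, 421, 365, 465 and 306 CPM in control, a log2 fold change of -0.16 (SE 0.22, adjusted p = 0.801). Col6a2 stood at 223, 173, 447, 276 and 219 CPM in KO, against 297, 313, 268, 353 and 196 CPM in control, with -0.09 (SE 0.25, adjusted p = 0.902). Both groups overlapped, and KO library 4 was the highest library for each gene. Without that library the log2 fold change was -0.39 for Col6a1 and -0.36 for Col6a2, and without KO library 3 it was -0.05 for Col6a1 and 0.03 for Col6a2. Col6a3, the long chain whose tail is released from adipocytes as endotrophin, stood at 221, 161, 291, 273 and 209 CPM in KO, against 245, 332, 286, 334 and 180 CPM in control, with -0.25 (SE 0.20, adjusted p = 0.676), and -0.15 without KO library 3. Col6a4 was near the filter, at 0.904 ± 0.192 CPM in KO and 1.06 ± 0.449 CPM in control.

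Per kilobase of exon, the long chains ordered as Col6a5, Col6a3, Col6a6 and Col6a4 in KO. Col6a5 stood at 31.5 ± 10.4 CPM per kb in KO and 21.4 ± 7.17 in control, and Col6a3 at 19.3 ± 4.37 in KO and 23 ± 5.41 in control. In control, Col6a3 and Col6a5 were closer to each other than the SD of either. Col6a6 stood at 11.2 ± 1.99 CPM per kb in KO and 6.31 ± 1.35 in control, and Col6a4 at 0.106 ± 0.0225 in KO and 0.124 ± 0.0526 in control. The ratio of Col6a6 to Col6a3 per length, computed after the values were seen, was 0.778, 0.825, 0.371, 0.488 and 0.585 in KO libraries 2 to 6, against 0.264, 0.296, 0.290, 0.225 and 0.315 in control libraries 2 to 6. These groups did not overlap. Those of Col6a6 CPM alone did not either, so the ratio is not a separate result. The ratio of Col6a5 to Col6a3, also added after the values were seen, was 1.76 ± 0.793 in KO and 0.959 ± 0.328 in control.

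**Figure D4:**
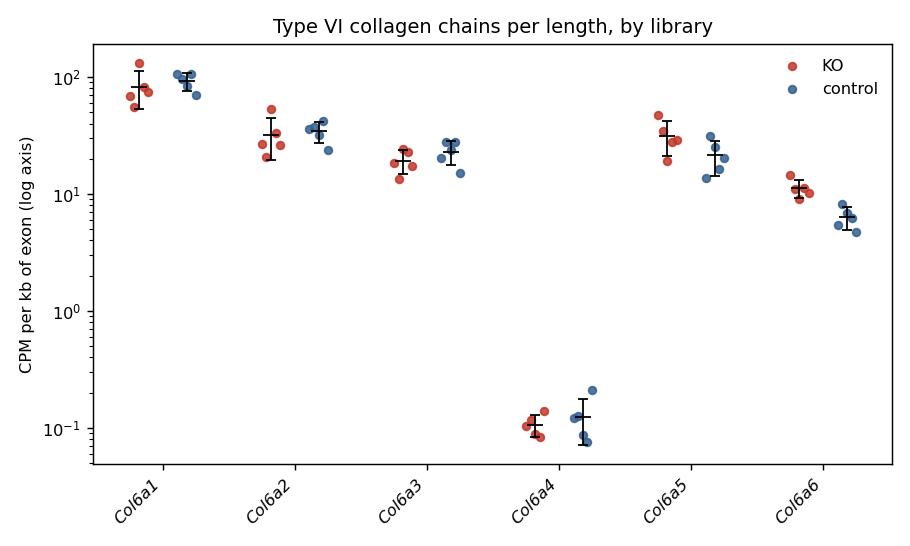
CPM per kb of exon on a log axis is plotted for the 6 type VI genes (x axis) in each KO library (red) and control library (blue), with bars at the mean and SD of 5 libraries. The KO points of Col6a6 lie above all its control points, Col6a5 overlaps between groups, and Col6a4 lies far below the other chains.

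Col6a6, Col6a5 and Col6a4 lie in a row on the minus strand of chromosome 9, and with Col5a3, Col7a1 and Col12a1 they make 6 collagen genes on that chromosome. Of the 29 tested genes between 105 and 107 Mb of it, edgeR called 3, where it called 0.0608% of all genes tested. All 3 were lower in KO, namely Ppm1m with a log2 fold change of -1.15, Rpl29 with -1.83 and Abhd14b with -0.79. The groups did not overlap for 6 of the 29, against 1.91% of all genes tested. Of these 6, 5 were lower in KO, and the 1 that was higher was Col6a6. Pik3r4, the tested gene next to Col6a6 on its other side, had 0.05. The part of position on the chromosome in the values of Col6a6 and Col6a5 was not tested.

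Promoter sequence is shown for 2 long chains above 0 in KO, Col6a5 and Col6a6, and for 2 chains of the same filament below 0, Col6a1 and Col6a3. Each line gives the 120 bases before the first annotated start, 5′ to 3′ on the gene's strand, from the RefSeq promoter table of GRCm38.p6. Capitals mark a GC box, GGGCGG on either strand. The positions, all on the minus strand, are chr9:105828161-105828280 for Col6a6, chr9:105960644-105960763 for Col6a5, chr10:76726169-76726288 for Col6a1 and chr1:90843972-90844091 for Col6a3.
Col6a6: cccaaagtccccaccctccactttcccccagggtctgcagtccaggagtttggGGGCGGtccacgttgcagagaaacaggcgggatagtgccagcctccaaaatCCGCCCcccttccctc
Col6a5: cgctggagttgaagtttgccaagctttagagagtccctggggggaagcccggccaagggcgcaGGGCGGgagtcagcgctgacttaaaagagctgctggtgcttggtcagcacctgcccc
Col6a1: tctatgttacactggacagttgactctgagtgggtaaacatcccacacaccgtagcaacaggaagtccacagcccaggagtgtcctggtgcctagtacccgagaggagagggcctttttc
Col6a3: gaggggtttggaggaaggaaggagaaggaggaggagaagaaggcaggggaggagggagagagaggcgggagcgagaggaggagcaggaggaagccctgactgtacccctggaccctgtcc
The windows of Col6a6 and Col6a5 held GC boxes and those of Col6a1 and Col6a3 held none of the motifs searched. Over the 250 bases before each RefSeq start, GGGCGG on either strand was found in 22 of 38 promoters of 35 collagen genes (57.9%), against 32.7% of 32851 promoters. The 22 included promoters of Col6a2 and Col6a4, type VI genes that also had fold changes below 0. A link between GC boxes and the direction of change was not tested. CCAAT was found in 13 (34.2%), against 33.8% of all, and TATAAA in 5 (13.2%), against 12.4% of all. The 3 motifs share no letters by overlap in the lines shown. A match is a run of letters, not a site in use.

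Col15a1 and Col18a1 are the multiplexins, collagens with many breaks in the helix that lie beside basement membranes, and Col18a1 is the source of endostatin. Col15a1 stood at 363, 206, 777, 422 and 331 CPM in KO libraries 2 to 6, against 619, 377, 387, 600 and 222 CPM in control. KO library 4 was highest and KO library 3 lowest, so the groups overlapped fully, and the log2 fold change was -0.07 (SE 0.37, adjusted p = 0.955). Its sign turned when single libraries were left out, with 0.10 without KO library 3. Col18a1 averaged 186 ± 42.2 CPM in KO and 213 ± 50.9 CPM in control.

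The fibril-associated collagens sit on the surface of fibrils and do not form fibrils themselves. Of 9 genes 6 were tested, 2 above 0 and 4 below. Col12a1, which bridges type I fibrils in tendon and other loaded tissue, stood at 25.4, 31.2, 26.1, 25.3 and 18.3 CPM in KO libraries 2 to 6, against 55.3, 31.3, 26.7, 48.6 and 67.0 CPM in control libraries 2 to 6. The groups overlapped only through KO library 3 at 31.2 CPM and control library 4 at 26.7 CPM. It averaged 25.3 ± 4.58 CPM in KO and 45.8 ± 16.8 CPM in control, a log2 fold change of -0.86 (SE 0.25, adjusted p = 0.40, exact two-sided permutation p = 0.0159). DESeq2 gave an adjusted p of 0.0599.

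Col22a1, known from the junctions of muscle and tendon, stood at 0.946, 0.753, 1.26, 1.10 and 3.76 CPM in KO, against 0.202, 0.500, 0.213, 0.264 and 1.26 CPM in control. KO library 6 and control library 6 were each the highest of their group by far. The log2 fold change was 1.67 (SE 0.64, adjusted p = 0.451), on counts near the filter. It was 1.05 without KO library 6 and 2.40 without control library 6. Col16a1 averaged 25.2 ± 9.42 CPM in KO and 37.9 ± 13 CPM in control. Col14a1 averaged 103 ± 23.9 CPM in KO and 107 ± 26 CPM in control, and Col20a1 averaged 5.16 ± 0.67 CPM in KO and 5.11 ± 0.79 CPM in control. Col9a3 ranged from 0.479 to 0.911 CPM in KO and from 0.577 to 1.17 CPM in control.

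The network and anchoring collagens were all scarce, and their 4 genes had a median log2 fold change of -0.46. With an adipocyte marker score as a covariate the median was -0.24, and without control libraries 3 and 6 it was -0.23. Col8a1 and Col8a2 are short chains of sheet-like lattices around vessels and in the cornea. Col8a1 stood at 11.5, 10.6, 8.99, 15.9 and 12.6 CPM in KO libraries 2 to 6, against 12.9, 17.6, 17.5, 14.8 and 13.7 CPM in control, a log2 fold change of -0.36 (SE 0.16, adjusted p = 0.490). Col8a2 stood at 4.31, 5.61, 3.70, 2.52 and 3.93 CPM in KO, against 4.91, 8.07, 5.60, 4.56 and 6.49 CPM in control, a log2 fold change of -0.56 (SE 0.23, adjusted p = 0.479). For both genes control library 3 was highest and the groups overlapped. Col7a1, which forms the anchoring fibrils under epithelia, stood at 2.10, 4.21, 0.863, 1.10 and 0.914 CPM in KO, against 2.93, 6.07, 0.957, 1.88 and 10.6 CPM in control. Its highest libraries were control libraries 6 and 3 and KO library 3, which were also the 3 highest for Crisp1. The part of epididymal RNA in this value was not tested. Col10a1, known from growing cartilage, averaged 5.86 ± 0.80 CPM in KO and 6.62 ± 0.95 CPM in control.

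Of the transmembrane collagens, Col13a1, Col17a1 and Col23a1 were tested and had log2 fold changes of -0.66, -0.56 and -0.65. Col13a1 is low, with a mean log2 CPM under 0 (SE of the fold change 0.41, edgeR adjusted p = 0.588). It averaged 0.554 ± 0.273 CPM in KO and 0.876 ± 0.389 CPM in control, and was highest in control library 6 at 1.54 CPM. Col17a1, a part of the hemidesmosomes that fix epithelial cells to the basement membrane, averaged 2.14 ± 1.37 CPM in KO and 3.16 ± 2.18 CPM in control. It was highest in control library 6 at 6.94 CPM and next in KO library 3 at 4.52 CPM. Col23a1 averaged 10.6 ± 2.10 CPM in KO and 16.6 ± 9.32 CPM in control, with 33.0 CPM in control library 3.

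Col26a1, a collagen known from mouse testis and ovary, is low, with a mean log2 CPM under 0. It stood at 0.175, 0.171, 0.288, 0.391 and 0.237 CPM in KO libraries 2 to 6, against 1.89, 4.92, 0.461, 0.415 and 0.351 CPM in control libraries 2 to 6. Control libraries 2 and 3, the highest for Akr1b7, stood apart from the other 8. The log2 fold change of -2.65 (SE 0.79, edgeR adjusted p = 0.40, DESeq2 adjusted p = 0.0499) was -1.61 without control library 3 and -0.78 with a smooth muscle marker score as a covariate. The part of vas deferens RNA in this value was not tested. Col28a1 averaged 5.17 ± 0.74 CPM in KO and 5.77 ± 1.68 CPM in control. The 6 genes that did not pass the filter were Col2a1, Col9a1, Col9a2, Col19a1, Col24a1 and Col25a1, with 25 to 175 counts each over the 10 libraries.

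**Figure D5:**
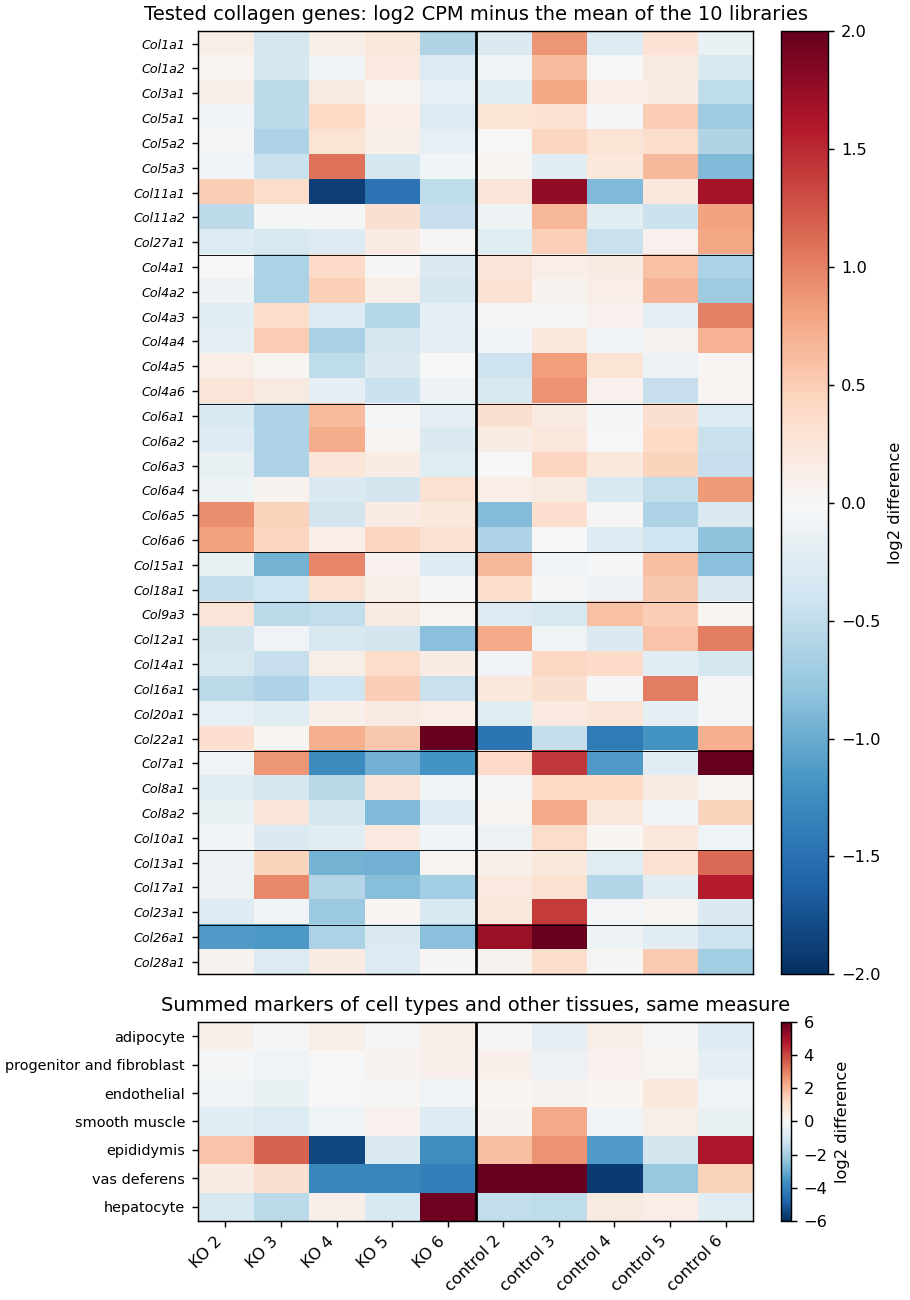
The upper map shows log2 CPM minus the mean of the 10 libraries for the 38 tested collagen genes (rows, by class) in KO and control libraries (columns), with colours ending at 2 in either direction, and the lower map shows the same measure for summed markers, with colours ending at 6. Control library 3 is red for Col1a1, Col1a2 and Col3a1 and for smooth muscle markers, and KO library 3 is blue for Col1a2, Col3a1, Col4a1, Col6a1 and Col15a1.

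Beside these values, the 10 smooth muscle markers and the 10 endothelial markers all had fold changes below 0, and edgeR called none of them. Of all genes tested, 55.2% were below 0 and 44.8% above. At an unadjusted edgeR p under 0.05 there were 8 smooth muscle and 4 endothelial markers, where 10.1% of all genes tested were. DESeq2 called Cnn1, a smooth muscle gene, and Cldn5, a tight junction gene of endothelial cells. It called 1.41% of the 15100 genes to which it gave an adjusted p, 0.55% lower in KO. Cldn5 averaged 32.9 ± 4.99 CPM in KO and 75.4 ± 18.4 CPM in control (log2 fold change -1.2, edgeR adjusted p = 0.103). Its groups did not overlap, which held for 1.91% of all genes tested (0.9% lower in KO). Summed endothelial markers ranged from 655 to 887 CPM in KO and from 734 to 1308 CPM in control. The 10 adipocyte markers were all above 0, and their sum ranged from 27591 to 36519 CPM in KO and from 17010 to 37007 CPM in control. Of 14 progenitor and fibroblast markers 7 were above and 7 below 0, with sums of 8610 to 12527 CPM in KO and 6800 to 12473 CPM in control. With a smooth muscle marker score as a covariate, 29 of 38 collagen genes were below 0, as were 29 with an adipocyte marker score. With the same smooth muscle covariate the log2 fold change was 0.96 for Col6a6, 0.78 for Col6a5 and -0.97 for Col12a1, and it turned to 0.09 for Col1a1 and 0.08 for Col3a1. Mesothelial sums ranged from 274 to 368 CPM in KO and from 228 to 535 CPM in control, and macrophage sums from 698 to 1006 CPM in KO and from 722 to 1362 CPM in control.

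Per kilobase of the union of annotated exons, Col4a1 was the most abundant collagen gene, at 154 ± 39.7 CPM per kb in KO and 180 ± 49.6 in control. Col3a1 followed at 105 ± 19 in KO and 119 ± 41.9 in control, Col4a2 at 88.1 ± 26.2 in KO and 102 ± 32.7 in control, and Col6a1 at 82.4 ± 29.3 in KO and 92.1 ± 15.5 in control. The gaps from Col3a1 to Col4a2 and from Col4a2 to Col6a1 were smaller than the SD of either gene of the pair. Col15a1, Col1a2, Col1a1 and Col5a3 came next, between 43.0 and 66.1 CPM per kb in KO and between 43.5 and 69.4 in control. The order depends on the length used. The exon union and the longest transcript were 12426 and 5348 bases for Col1a2, 9816 and 5564 for Col3a1, and 7464 and 6615 for Col4a1. By the longest transcript, the group means of Col3a1 would stand above Col4a1, and those of Col1a2 above Col4a2 and Col6a1. The highest library exceeded the lowest by 1.40-fold for Col20a1, the least variable tested member, and by 28.8-fold for Col26a1, the most variable.

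Many of the genes also have an exon structure that their names do not use, most of all the fibrillar class. In fibrillar collagen genes, 47.0% of 649 coding exons were exactly 54 bases long, which codes for a whole number of the glycine-led repeats of the helix. The share was 23.4% of 2004 coding exons over all 44 genes and 0.442% of 197784 coding exons of other protein-coding genes. It was 25.2% in the fibril-associated class, 8.86% in the transmembrane class, 7.83% in type VI, 4.94% in the multiplexins, 4.26% in Col26a1 and Col28a1 together, 4.84% in the network and anchoring class and 4.05% in the basement membrane class. Col8a1, Col8a2 and Col10a1, with 2 coding exons each, had 0 exons of that length, as had Col26a1. Exons whose length is a multiple of 9 made up 82.4% in fibrillar genes, 61.8% over all collagen genes and 14% in other genes. The median number of coding exons was 60 in fibrillar genes, 47 over all collagen genes and 6 in other genes.

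The enzymes and partners of collagen were described through 6 lists, and no gene in them was called by edgeR, limma-voom or DESeq2. The counts of every list stand beside those of all genes tested, of which 55.2% were below 0. At an unadjusted edgeR p under 0.05, 4.77% of all genes were lower and 5.36% higher in KO. Of the hydroxylation and folding genes, 5 of 20 tested were above 0 and 15 below, with a median of -0.13, and 2 of them, both lower, had an unadjusted p under 0.05. Colgalt1, which adds galactose to hydroxylysine, averaged 56.0 ± 8.72 CPM in KO and 68.2 ± 5.22 CPM in control (log2 fold change -0.29, adjusted p = 0.446). P4hb, the beta subunit of prolyl hydroxylase, averaged 362 ± 37.2 CPM in KO and 425 ± 47.7 CPM in control (adjusted p = 0.493). Plod2, a lysyl hydroxylase, had a log2 fold change of -0.25.

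Of the processing and crosslinking genes, 6 of 15 were above 0 and 9 below, with a median of -0.09 and 1 of them, lower, at an unadjusted p under 0.05. Pcolce, which speeds removal of the C-terminal propeptide, averaged 26.1 ± 2.83 CPM in KO and 32.7 ± 6.27 CPM in control (log2 fold change -0.32, adjusted p = 0.48). Its relative Pcolce2 had 0.29 and the crosslinking transglutaminase Tgm2 had -0.23.

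Of the fibril-binding matrix proteins, 9 of 24 were above 0 and 15 below, with a median of -0.14 and 3, all lower, at an unadjusted p under 0.05. Thbs1, thrombospondin, averaged 614 ± 301 CPM in KO and 1267 ± 458 CPM in control (log2 fold change -1.04, adjusted p = 0.436). Emilin1, an elastic fibre protein, had -0.38, and Fbn2, a microfibril protein at 8.73 CPM in control library 3 and 1.26 CPM or less in the other controls, had -1.91.

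Of the basement membrane partners, 5 of 18 were above 0 and 13 below, with a median of -0.14 and 2, both lower, at an unadjusted p under 0.05. Lama5, a laminin chain of many basement membranes, averaged 67.0 ± 12.2 CPM in KO and 86.9 ± 15.2 CPM in control (log2 fold change -0.38). Lamb3, a laminin chain of epithelia, had -0.52.

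Of the collagen receptors, 4 of 13 tested were above 0 and 9 below, with a median of -0.08, and 1, higher, had an unadjusted p under 0.05. Cspg4, a proteoglycan of pericytes that binds type VI collagen, averaged 57.5 ± 19.2 CPM in KO and 39.0 ± 9.24 CPM in control (log2 fold change 0.56, adjusted p = 0.48). The integrin chains Itgb1 and Itga2 had -0.21 and -1.47, with Itga2 at 58.1 CPM in control library 3 and 14.4 CPM or less in the other controls. Of the genes of signalling by TGF-beta, a growth factor known to raise collagen transcription, 8 of 20 were above 0 and 12 below, with a median of -0.05, and 5, all lower, had an unadjusted p under 0.05. Among these, Skil and Smad7, inhibitors of the pathway, had -0.31 (adjusted p = 0.40) and -0.81 (adjusted p = 0.436), and the endothelial receptor Acvrl1 had -0.30.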

How the data were processed

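Total RNA of epididymal fat was sequenced from 5 KO and 5 control libraries, grouped by the condition label. A stranded total RNA kit took 300 ng of TRIzol-extracted RNA, per the labels' protocols. The authors deposited raw counts per Ensembl gene, not normalized. STAR 2.5.2 and mm10 are named in the submitters' processing notes; no source used here gives the counting program, annotation or strand setting, and values of overlapping genes (Col4a1 with Col4a2, Col9a3 with Tcfl5, Col10a1 with Nt5dc1, Col18a1 with Slc19a1) are uncertain. Symbols and coordinates came from GENCODE vM21, which named 26008 of the 26040 identifiers.

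Counts were tested with edgeR 4.0.16 in R 4.3.3: filterByExpr (minimum count 10, minimum total 15), TMM scaling, robust quasi-likelihood fit with group as the only term, Benjamini-Hochberg adjustment over 16446 genes and a threshold of 0.05. The common biological coefficient of variation was 0.412, and the totals of 24182798 to 30603326 counts limit the precision of genes near 1 CPM. The map of libraries and the deviations between paired genes use log2 CPM. Permutation tests of single genes used log2(CPM + 0.1). Levels per kilobase divide CPM by the union of annotated exons. The fit was checked on simulated data. P-values measure the spread between these libraries; beyond the word mice, the labels do not say how the samples were taken.

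Alternatives were limma 3.58.1, DESeq2 1.42.0, other scalings and filters, marker scores as covariates, a replicate block and left-out libraries. No pair of libraries agreed within sampling noise. Genes given with every library value were the main chains of types I, III, IV and VI and Col15a1, up to 4 members per direction with the smallest p, and the 2 per direction with the largest fold change. Up to 3 genes per partner list with the smallest p were named, of which 1 is not reported here; Col7a1 and the markers named by gene were added after their values were seen. The members, lists and marker genes were chosen with earlier results of these data known.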

Additional observations from a re-analysis of the deposited data

Results flagged for a closer look

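Among 86 groups of 5 libraries examined, for the named genes, collagen totals and chain ratios, 6 held a library set apart from the other 4 by more than Dixon's 95% critical value of 0.71 of the range; chance gives about 1 in 20. Col5a3 was at 611.6 CPM in KO library 4, against 209.7 to 277.4 CPM in the other KO libraries. Col22a1 was at 3.76 CPM in KO library 6 and 0.753 to 1.26 CPM in the other KO libraries, and at 1.26 CPM in control library 6 and 0.202 to 0.500 CPM in the other controls. Smad7 was at 20.9 CPM in KO library 5, against 9.51 to 11.4 CPM in the other KO libraries. Fbn2 was at 8.73 CPM in control library 3, against 0.567 to 1.26 CPM in the other controls, and Itga2 was at 58.1 CPM there, against 4.38 to 14.4 CPM.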

How the results depend on the processing

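Of 906 alternative values of single genes, 877 kept their direction and their side of the threshold, 27 turned direction and 2, Col6a6 and Col26a1 with DESeq2, passed the threshold. The count of all genes called, 10 in the fit reported, was 213 with DESeq2, 27 with limma-voom sample weights, 4 with the replicate block, 3 with the smooth muscle covariate, 6 without control libraries 3 and 6, 4 without KO library 6 and control library 3, and 3 to 18 with single libraries left out. The count of collagens called, 0 in the fit reported, was 2 with DESeq2. Fewer libraries leave fewer degrees of freedom; for the other settings the cause was not tested.

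Directions turned as follows, in log2 values. With the smooth muscle covariate these were 0.090 for Col1a1, 0.010 for Col1a2, 0.076 for Col3a1, -0.074 for Col5a3, 0.031 for Fbn2 and 0.33 for Itga2. Without KO library 6 and control library 3 they were 0.13 for Col1a1, 0.0069 for Col1a2, 0.068 for Col3a1 and 0.0074 for Col6a2. Without KO library 3 and control libraries 3 and 6, chosen after the data were seen, they were 0.060 for Col1a1, 0.022 for Col3a1 and -0.048 for Col5a3. Col5a3 was also -0.14 with sample weights, -0.35 with the adipocyte and -0.023 with the epididymal covariate, and -0.17 without control libraries 3 and 6. With the adipocyte covariate Pcolce2 was -0.041. Class medians of -0.10 and -0.12 (basement membrane) and -0.24 and -0.23 (network and anchoring) were found with the adipocyte covariate and without control libraries 3 and 6. The median of Col26a1 and Col28a1, -1.40, was -0.15 with CPM over 1 in at least 5 libraries, -0.44 with the smooth muscle covariate and -0.85 without KO library 6 and control library 3.

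With single libraries left out, log2 fold changes ranged from -0.33 to 0.011 for Col1a1 and -0.31 to 0.035 for Col3a1 (each above 0 without control library 3), -0.26 to 0.31 for Col5a3 (below 0 without KO library 4 and, at -0.055, control library 6), -0.36 to 0.030 for Col6a2 (above 0 without KO library 3) and -0.42 to 0.10 for Col15a1 (above 0 without KO library 3 or 6 or control library 2 or 5), and the Col26a1 and Col28a1 median from -1.61 to -0.86 (without control library 3). By the longest transcript's length, ratios in KO and control were 0.429 and 0.437 for Col1a1 to Col1a2, 1.94 and 1.97 for Col4a1 to Col4a2, 1.63 and 1.71 for Col6a1 to Col6a2, and 3.97 and 3.82 for Col3a1 to Col1a1.

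The labels do not say whether the replicate numbers pair the libraries. Correlations of same-numbered deviations were 0.377, -0.113, 0.632, 0.436 and -0.096 for numbers 2 to 6. For KO libraries 4 and 5 only, the best-matching control library had the same number. Correlations of mixed sign over so few libraries cannot decide whether the numbers are pairs. With the replicate block no collagen was called, and Col6a6 had 0.83 with an adjusted p of 0.258. At this depth, members with a mean log2 CPM under 0 rest on few reads, and a gene missing the threshold is not shown to be alike in KO and control.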
